A study of Mus musculus with 4 samples.

Results

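The cells described here are those in which Malat1 took the highest share of the unique molecular identifiers (UMIs, the tags that count single RNA molecules). In each of 4 single-cell libraries, barcodes with at least 400 detected genes, at most 10% of UMIs in mitochondrially encoded genes and at least 3% in cytoplasmic ribosomal protein genes were kept, and the 5% of kept cells with the highest Malat1 share were taken. That gave 640 cells of 12815 kept cells and of 13138 barcodes. By library, 176 of 3520 kept cells were taken in replicate 1, 183 of 3661 in replicate 2, 126 of 2529 in replicate 3 and 155 of 3105 in replicate 4.

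Each library came from 1 male C57BL/6J mouse at postnatal day 90, and all 4 mice belonged to a single group that received PBS by tail vein before tissue was taken. Cortex and hippocampus were dissociated cold with a Dounce homogenizer, without enzymes, cells were cleared of myelin on Percoll, and live CD45+/CD11b+ cells, the surface phenotype of microglia and other brain myeloid cells, were sorted and captured with the 10x 3′ v2 chemistry. No genotype or treatment was contrasted, so every comparison below is between cells of the same library. Per the study's methods, the sorter clogged during the last animal and that sample stood at room temperature, and in replicate 4 the immediate early genes Jun and Fos were higher than in the other libraries in the members and in the cells they were compared with. The libraries held 5867333 to 11275195 UMIs. Of 13054 distinct barcodes, 84 occurred in more than 1 library and none of those shared barcodes was held by members of both.

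Malat1 is a long noncoding RNA that stays in the nucleus, where it gathers at speckles, the compartments in which splicing factors are stored. It is among the most abundant transcripts of almost every mammalian cell, it is not translated, and its share of a cell's RNA depends both on how much of it there is and on how much other RNA is left. Microglia are the resident macrophages of the brain and hold P2ry12, Tmem119 and the complement genes C1qa, C1qb and C1qc at high levels. In droplet libraries an elevated share of Malat1 together with few cytoplasmic transcripts is commonly read as a quality measure, which is why the other RNA of these cells was measured here with Malat1 left out.

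Malat1 (ENSMUSG00000092341) is annotated as a lincRNA on the minus strand of chromosome 19 at chr19:5795690-5802672 of GRCm38, the build of the deposited counts, and its transcript Malat1-201 is 1 exon of 6983 bases. The 3′ chemistry primes on runs of A, and the mature 3′ end of Malat1 carries no conventional poly(A) tail but an A-rich stretch written in the genome. The stretch is shown because it is the place where the transcript offers such a run. It covers transcript positions 6574 to 6705, chr19:5795968-5796099 on the minus strand, and the capitals mark the longest run of A.

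Malat1 A-rich 3′ stretch: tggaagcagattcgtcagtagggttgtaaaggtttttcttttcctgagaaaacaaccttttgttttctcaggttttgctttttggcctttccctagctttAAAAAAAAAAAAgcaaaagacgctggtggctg

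The run is 12 A long, from position 6674 to 6685, and it is the only run of 8 or more A in the transcript. Among the 6183 tested genes with an annotated transcript, 651 (10.5%) held a run of A at least as long somewhere in the representative transcript, so such a run is not rare. Whether Malat1 molecules were captured there was not tested, since the deposited tables hold counts per gene and no read positions.

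The values that chose the cells are given as a description, with no test. Over all kept cells the median Malat1 share was 5.76% in replicate 1, 5.37% in replicate 2, 5.58% in replicate 3 and 5.27% in replicate 4. The lowest share taken was 9.26%, 8.52%, 8.96% and 8.58% in replicates 1 to 4, and the next cell just outside had 9.24%, 8.51%, 8.95% and 8.57%. The distribution ran on across this limit without a gap, and 523 kept cells lay within 0.5 points of it, 220 of them inside. The cells are therefore the upper end of a range and not a cell type. Their median Malat1 share was 10.0%, 9.38%, 9.90% and 9.41%, the highest single cell had 18.1%, and 4 of the 640 passed 15%.

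**Figure D1:**
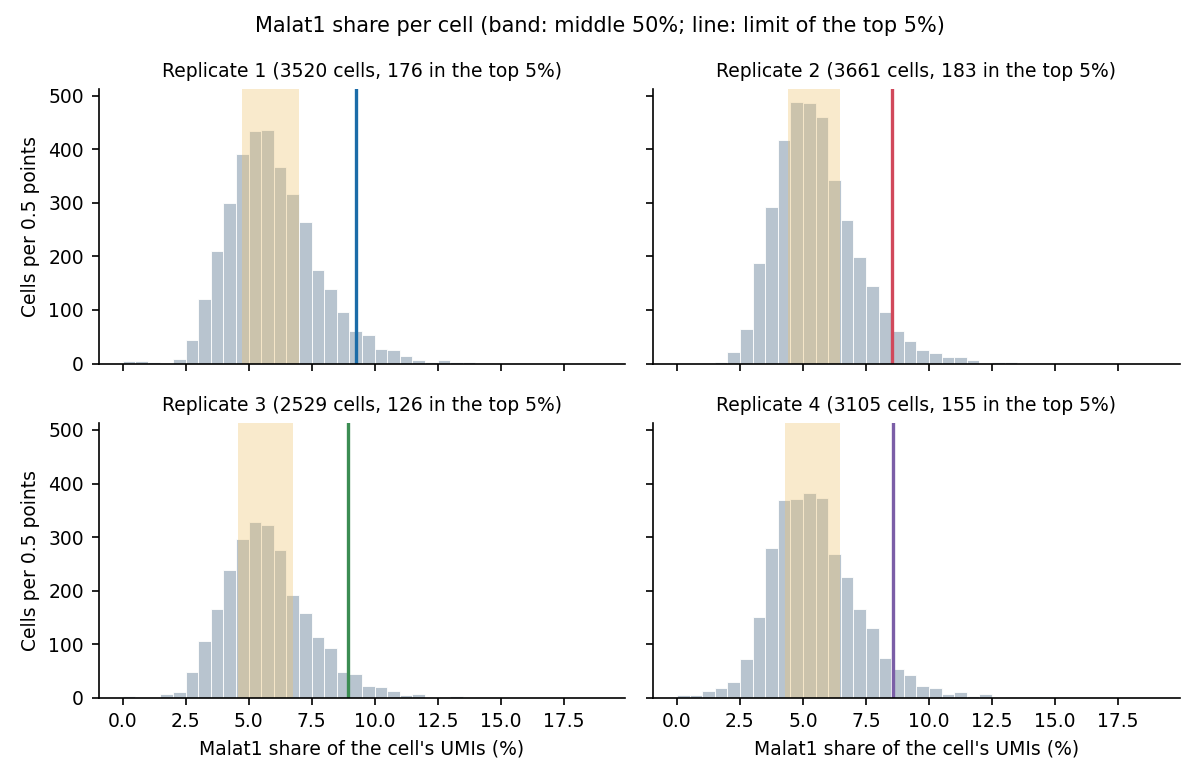
Number of kept cells per 0.5 points (y axis) against the Malat1 share of each cell's UMIs in percent (x axis), 1 panel per library, with the band marking the middle 50% of cells and the line the limit of the top 5%. Every library has a single peak between 4.5% and 6% and a tail to the right, in which the limit falls at 8.52% to 9.26% without a break.

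Both parts of the share differed in these cells, and since the cells were chosen on the share, their counts are a description without a test. The median count of Malat1 itself was 146, 204, 144 and 194 UMIs per cell in replicates 1 to 4, against 111, 161, 128 and 154 UMIs in the middle 50% of the same library by Malat1 share, a ratio of 1.24 ± 0.082 (SD, n = 4). The median count of all other UMIs was 1274.5, 1871, 1308 and 1862 per cell against 1813, 2844, 2164 and 2724, a ratio of 0.662 ± 0.043 (SD, n = 4). In every library the cells thus held more Malat1 and fewer other molecules than the middle cells, and 94.4% to 98.7% of them lay below the median of all kept cells in other UMIs. Between 10.9% and 17.4% exceeded the 95th percentile of Malat1 UMIs over the kept cells.

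Choosing a cell on a noisy share also chooses counting noise, so the UMIs of each cell were split at random into 2 parts of about equal size, 1 part to choose the cells and the other to measure them. The cells chosen on 1 part had a mean Malat1 share of 10.6%, 9.89%, 10.2% and 10.0% there and of 10.1%, 9.29%, 9.76% and 9.30% in the part not used, against 5.83%, 5.39%, 5.64% and 5.34% in the middle cells. Of the cells chosen, 57.1% to 63.4% were again among the top 5% of their library in the unused part. Most of the elevation in share was therefore seen again in molecules that had no part in the choice.

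For the other genes each of the 640 cells was set beside 3 cells of the middle 50% of its own library with the nearest number of non-Malat1 UMIs, 1920 cells in all, and Malat1 was left out of every total. The matching was not complete, because few middle cells were as shallow. The cells with the highest Malat1 share had 0.810 to 0.907 times the median non-Malat1 UMIs of the matched cells. With 1 matched cell per member, a setting added after the data were seen, the mean of the library medians was 1578.88 against 1579.12 UMIs and 45 genes were called higher and 60 lower. The counts of each list under that setting stand beside its main counts.

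Cytoplasmic ribosomal protein genes, the protein part of the translating ribosome, were taken by name, as in the floor of the rule. The match also holds S6 kinase genes, Rps19bp1 and ribosomal protein pseudogenes. Together these genes took a smaller share of the non-Malat1 UMIs in the cells with the highest Malat1 share. The mean share was 7.66%, 7.80%, 7.26% and 7.03% in replicates 1 to 4 against 8.78%, 8.34%, 7.72% and 7.48% in the matched cells. The difference was negative in 4 of 4 libraries, −0.64 ± 0.32 points (SD, n = 4, p = 0.13, exact two-sided sign-flip permutation test, the smallest p that 4 libraries allow). Replicate 1 differed most, by −1.12 points, and without it the mean difference was −0.48 points. With 1 matched cell per member the difference was −0.64 points, and for cells chosen on one part of their UMIs and measured on the other it was −0.67 points. Since the floor on ribosomal protein share bears on this measure, the cells were also chosen without it (651 cells), and the difference was then −0.88 points.

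Mitochondrially encoded genes, which give the transcripts of the respiratory chain made inside mitochondria, took 1.27%, 1.31%, 1.01% and 1.17% of the non-Malat1 UMIs against 1.45%, 1.34%, 1.24% and 1.17%. The mean difference was −0.10 ± 0.11 points (SD, n = 4), negative in 3 of 4 libraries, with p = 0.25 in the exact sign-flip permutation test. In replicate 4 the difference was 0.0041 points. Cells over the mitochondrial ceiling had been removed by the rule.

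More different genes were detected in the cells with the highest Malat1 share when every cell was thinned to the same 1000 non-Malat1 UMIs. The mean was 672, 664, 668 and 676 genes per cell in replicates 1 to 4 against 650, 648, 653 and 658 in the matched cells, which do not overlap. The difference was 17.5 ± 3.2 genes (SD, n = 4), positive in 4 of 4 libraries, with p = 0.13, again the smallest the exact test allows. Thinning left out 60 of the 640 members and 62 of the 1920 matched cells with fewer UMIs. Thinned to 500 UMIs, with all cells kept, the difference was 9.25 genes, and at 2000 UMIs, where replicate 1 had 3 members left, it was 39.2 genes. With 1 matched cell per member it was 15.3 genes. Without thinning, the medians were fewer, at 960.5 genes per cell in the members and 1046 in the matched cells (means of the 4 library medians).

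These measures, here without matching for depth, differed on average along the whole range of Malat1 share and not only at its end, though not at every step. Cells of other types were not left out of this comparison. With each library cut into 20 equal parts by Malat1 share, the ribosomal protein share averaged 9.53 ± 0.70% (SD, n = 4) in the lowest part, 8.34 ± 0.62% in the 10th, 7.85 ± 0.47% in the 19th and 7.44 ± 0.35% in the highest. Genes per cell at 1000 UMIs went from 625 ± 3.9 in the lowest part over 648 ± 2.8 and 666 ± 5.3 to 670 ± 4.8. Median non-Malat1 UMIs went from 2732 over 2432 and 1862 to 1579. Much of the fall in ribosomal protein share lay at the low end, as the 2nd part already averaged 8.84 ± 0.67%. The last part also covers the widest range of Malat1 share, with a mean of 10.0% after 8.32% in the 19th.

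**Figure D2:**
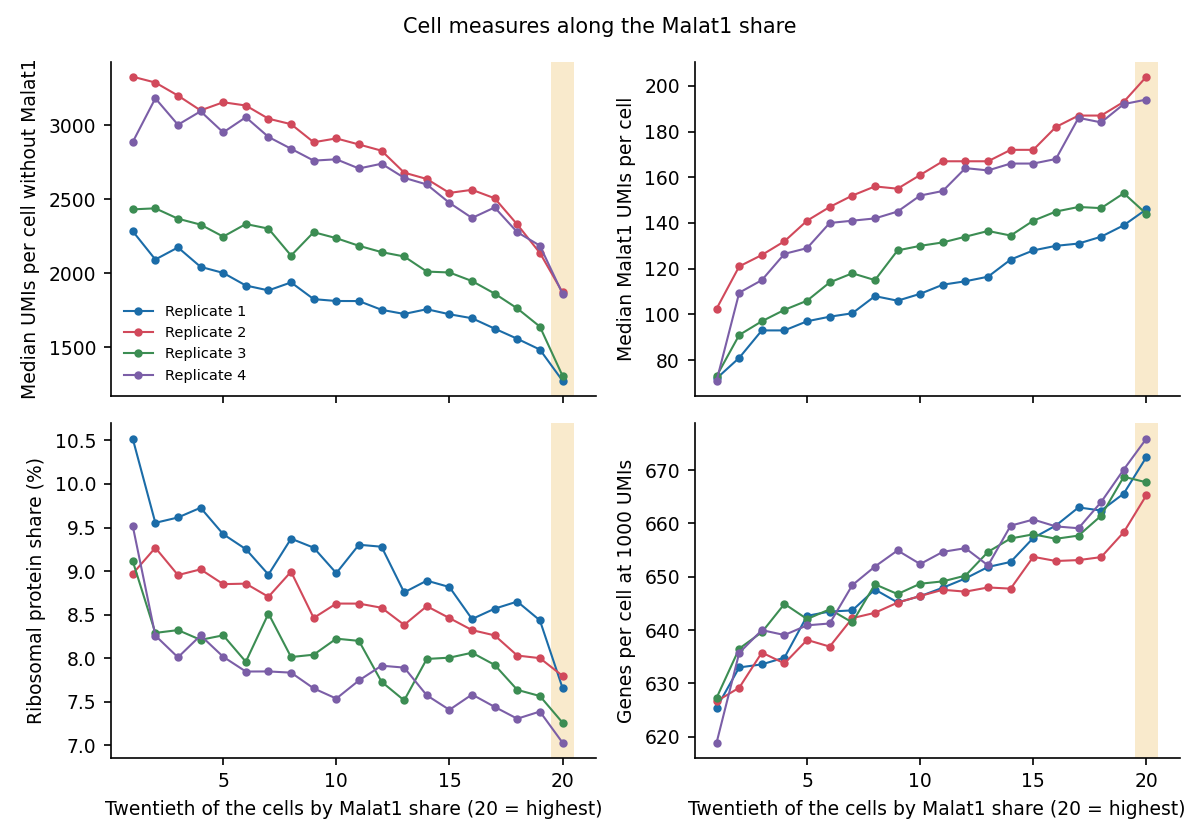
Median non-Malat1 UMIs, median Malat1 UMIs, mean ribosomal protein share in percent and mean genes per cell after thinning to 1000 UMIs (y axes) in 20 equal parts of each library ordered by Malat1 share (x axis, 20 highest, shaded), 1 line per library. On average depth and ribosomal protein share fall along the axis, to 1579 UMIs and 7.44% in the last part. Malat1 UMIs and genes per cell rise on average, to 172 UMIs and 670 genes. In replicate 3 both were lower in the last part than in the 19th, at 144 against 153 UMIs and 667.7 against 668.8 genes.

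The identity of the cells was checked against markers. The summed level of 18 microglial identity genes was 88799, 88816, 87299 and 87281 CPM (UMIs per 1000000 non-Malat1 UMIs of the summed cells) in replicates 1 to 4 against 91984, 91817, 90326 and 90208 CPM in the matched cells, lower in 4 of 4 libraries by a mean of −0.05 ± 0.0015 on the log2 scale (SD, n = 4). P2ry12 stood at 5949, 5743, 6129 and 6060 CPM and Tmem119 at 3564, 3374, 3254 and 3561 CPM, so the defining microglial markers were present in every library. Summed over the 640 members, markers of neurons gave 1 UMI, astrocytes 2, T and NK cells 1, proliferating cells 1, dendritic cells 3, monocytes 10, border macrophages 13 and endothelial cells 17. Markers of neutrophils and erythroid cells gave 0 UMIs, which allows up to 2.93 CPM over the members together. The 74 UMIs of B cell markers were all of Cd79b, which had no call (log2 fold change 0.38, adjusted p = 0.35). Oligodendrocyte markers, of myelin, were present at 77.9 ± 37 CPM (SD, n = 4) against 82.5 ± 5.7 CPM in the matched cells. In all, 3 members met a rule for other myeloid or dividing cells (at least 2 UMIs of such markers, or 3 of MHC class II genes) against 27 matched cells, 15 of them in replicate 4.

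Across genes, 6188 genes with a mean of at least 20 CPM over the 8 summed profiles were tested with edgeR's quasi-likelihood test, each library serving as its own block. At a Benjamini-Hochberg adjusted p under 0.05, 110 genes (1.78%) were higher and 95 (1.54%) lower in the cells with the highest Malat1 share. A log2 fold change past 0.58 as well, the study's own fold limit, left 55 higher (0.889%) and 9 lower (0.145%). Calls were more frequent among abundant genes. Of the most abundant 20% of protein-coding genes 4.77% were higher and 6.98% lower, and of the least abundant 20% 0.657% and 0.0%. The shares over all genes given beside the lists below do not allow for abundance. The balance of directions depended on the scaling. With the trimmed mean of M values 53.7% of the calls were higher, but with plain totals 162 were higher and 53 lower (75.3% higher), and with totals that also left out ribosomal protein and mitochondrial genes 141 and 56 (71.6%). Plain totals moved the median log2 fold change of all genes to 0.06, and changes below are relative to the trimmed mean, under which that median was 0.00071. That scaling set the fitted values 0.10 to 0.14 below the plain CPM ratios of a library on the log2 scale, and a ± after a fitted log2 fold change is the SE of the 4 plain ratios. The replicates weighed unequally: without replicate 1 there were 65 higher and 70 lower genes, without replicate 2 only 14 and 26, without replicate 3 92 and 101 and without replicate 4 66 and 74. Of the 205 called genes, 35 were called again, 10 higher and 25 lower, whichever library was left out.

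Genes of nuclear speckles and splicing were called higher in part and none was called lower. Of 30 listed genes, all tested, 11 were higher and none lower, a share of 36.67% beside the 1.78% of all genes. Values lay above 0 for 24 genes and below 0 for 6, and the median log2 fold change of the list was 0.22. Prpf38b, a component of the spliceosome, stood at 297, 265, 249 and 239 CPM in replicates 1 to 4 against 136, 140, 126 and 130 CPM in the matched cells. All 4 member values lay above all 4 matched values, and the log2 fold change was 0.91 ± 0.055 (SE over the 4 libraries' plain log2 ratios, adjusted p = 4.18e-07), or 1.88-fold. Pnn, which codes for the speckle protein pinin, was at 284, 251, 237 and 282 CPM against 178, 171, 144 and 137 CPM, again without overlap, a log2 fold change of 0.68 ± 0.10 (adjusted p = 0.00013). Luc7l2 and Arglu1, further speckle and splicing genes, rose by 0.50 and 0.56, and these 4 were called whichever library was left out. Prpf4b, a splicing kinase, rose by 0.62 ± 0.043 (adjusted p = 0.0031) but was not called without replicate 2 (adjusted p = 0.085). Rbm25, Acin1, Sf3b1, Rbm39, Srrm1 and Tra2a rose by 0.23 to 0.49. Son and Srrm2, the scaffold proteins of speckles, had log2 fold changes of 0.16 (adjusted p = 0.15) and 0.22 (adjusted p = 0.082). The list had 9, 4, 7 and 8 higher genes when replicates 1 to 4 were left out in turn, 3 with 1 matched cell per member and 5 in the unused part of the UMIs.

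Transcripts known for detained introns, which stay in the nucleus until an intron is removed, were called higher in part. Of 15 listed, all tested, 5 were higher (33.33% beside the 1.78% of all genes) and none lower, with 13 values above 0, 2 below and a median log2 fold change of 0.21. Pnisr, which codes for an SR-related protein, was at 470, 468, 504 and 481 CPM against 352, 317, 300 and 294 CPM in the matched cells. The groups did not overlap, the log2 fold change was 0.54 ± 0.076 (adjusted p = 4.18e-05), and the call held whichever library was left out. Ddx5, an RNA helicase, was at 1516, 1244, 1174 and 1804 CPM against 1102, 1100, 1069 and 1332 CPM, higher in 4 of 4 libraries though the ranges overlap, a log2 fold change of 0.26 ± 0.085 (adjusted p = 0.0029, and 0.10 without replicate 4). Clk1, the kinase of SR proteins, rose by 0.43, Nktr by 0.45 and Srsf5 by 0.30, each losing its call when at least 1 library was left out, and Rsrp1 had a value of 0.11 (adjusted p = 0.17). Leaving out replicates 1 to 4 in turn gave 4, 2, 4 and 2 higher genes of this list, 1 matched cell per member gave 2, and the unused part of the UMIs gave none.

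Large chromatin regulators and RNA polymerase II genes had the highest median of the lists, 0.29, with 3 of 21 tested genes higher (14.29% beside 1.78%) and none lower. Atrx, a chromatin remodeller, was at 168, 151, 124 and 99.8 CPM against 75.9, 80.9, 72.0 and 71.9 CPM, without overlap, a log2 fold change of 0.79 ± 0.14 (adjusted p = 0.0011, and 0.086 without replicate 2). Chd2, another remodeller, rose by 0.70 and Zfhx3, a large transcription factor, by 0.35, and neither was called without replicate 1 or without replicate 4. Ncor1 and Kmt2e, a corepressor and a chromatin reader, had log2 fold changes of 0.04 and −0.03 (adjusted p of 0.93 and 0.95). The list had 1, 1, 3 and 1 higher genes without replicates 1 to 4 and 1 with 1 matched cell per member.

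Transcription factors of microglia were higher for 6 of 17 tested genes (35.29% beside 1.78%), with none lower and a median of 0.08. Mef2a, a MADS-box factor, was at 483, 568, 646 and 581 CPM against 358, 364, 380 and 372 CPM. Its values did not overlap, and it rose by 0.56 ± 0.069 on the log2 scale (adjusted p = 3.55e-06) and was called whichever library was left out. Tcf12 rose by 0.78, Zeb2 by 0.37, Maf by 0.32 and Mef2c by 0.21, each losing its call when at least 1 library was left out. Spi1, which codes for PU.1, and Irf8, also on the list, had log2 fold changes of −0.13 (adjusted p = 0.41) and 0.15 (adjusted p = 0.16). The list had 3, 1, 5 and 4 higher genes without replicates 1 to 4 and 3 with 1 matched cell per member.

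**Figure D3:**
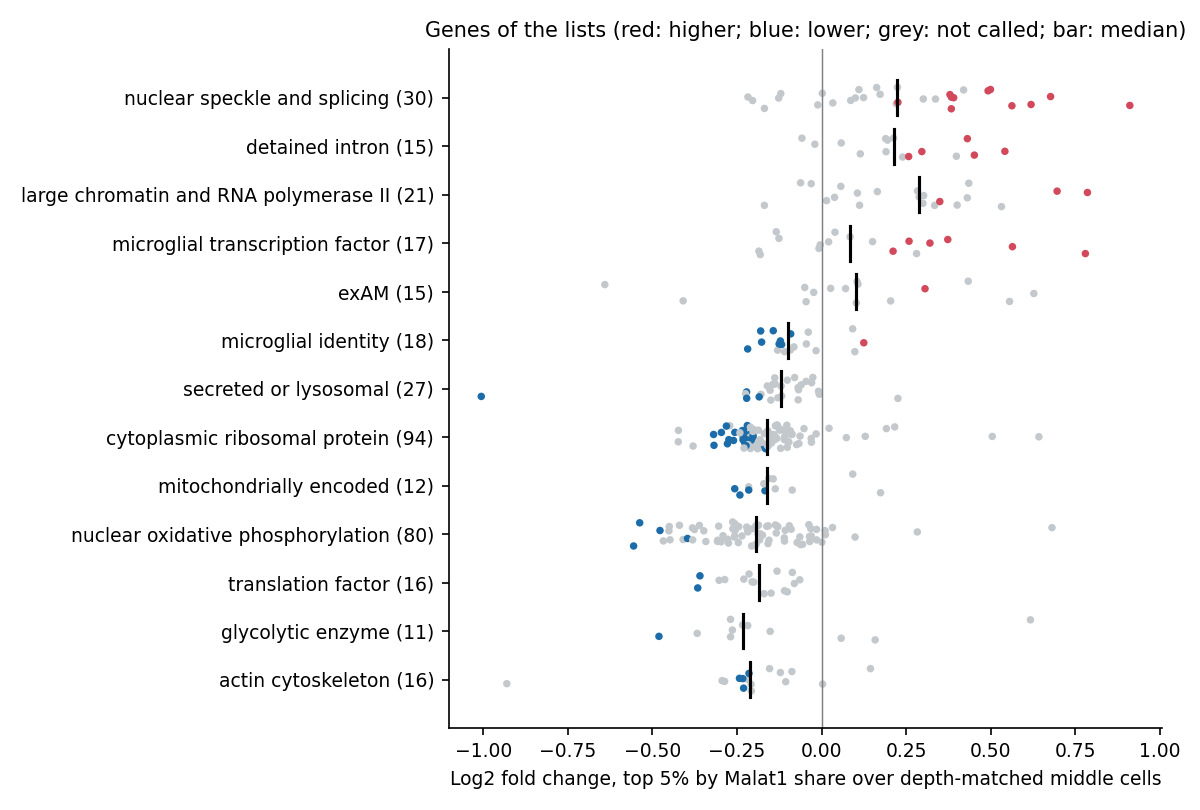
Log2 fold change of each tested gene in 13 lists (x axis, cells with the highest Malat1 share over depth-matched middle cells; number of tested genes in brackets), red where called higher, blue where called lower and grey where not called, with a bar at the list's median. The lists of nuclear speckle and splicing, detained intron, chromatin and transcription factor genes have medians of 0.08 to 0.29, and the ribosomal protein, oxidative phosphorylation, translation, glycolysis and actin lists have medians of −0.23 to −0.16.

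Of the other nuclear noncoding RNAs 2 could be tested, and neither was called. Neat1, the neighbour of Malat1 on chromosome 19 (chr19:5824708-5845478) and the scaffold of paraspeckles, was at 22.2, 48.5, 77.1 and 92.7 CPM against 46.1, 44.7, 48.6 and 69.8 CPM, lower in replicate 1 and higher in the other 3 libraries, with a log2 fold change of 0.13 ± 0.37 (adjusted p = 0.85). It was counted by 5 to 26 UMIs per summed member profile, which leaves its SE wide. Along the 20 parts by Malat1 share, Neat1 averaged 55.8 ± 18 CPM (SD, n = 4) in the lowest part, 33.0 ± 6.8 in the 5th, 45.8 ± 3.5 in the 10th, 66.2 ± 19 in the 19th and 60.1 ± 31 in the highest. Kcnq1ot1, an imprinted antisense RNA, had a log2 fold change of 0.17 ± 0.15 (adjusted p = 0.67). The other 14 listed nuclear noncoding RNAs were absent from the tables or below 20 CPM. Of the noncoding hosts of small nucleolar RNAs, Snhg6, Snhg12 and Snhg20 were tested and lay between −0.01 and 0.00. Gm42418, Gm26917 and AY036118, loci that overlap ribosomal RNA repeats, had log2 fold changes of 0.20, 0.13 and 0.55 (adjusted p of 0.54, 0.58 and 0.12).

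Of the 109 genes of the ribosomal protein list 94 were tested, 23 were lower (24.47% beside the 1.54% of all genes) and none higher, and the median log2 fold change was −0.16. The 94 included 5 S6 kinase genes, Rps19bp1 and 9 pseudogenes, of which 1 pseudogene was lower, and of the other 79 genes 22 were lower and 1 had a value above 0. Rpl32, a protein of the large subunit, was at 1201, 1187, 1055 and 1041 CPM against 1434, 1449, 1206 and 1262 CPM, all members below all matched profiles, a log2 fold change of −0.32 ± 0.021 (adjusted p = 9.66e-05). Rps27, of the small subunit, was at 2053, 2078, 1980 and 1872 CPM against 2416, 2288, 2204 and 2057 CPM, lower in 4 of 4 libraries, with a fitted log2 fold change of −0.22 ± 0.023 (adjusted p = 0.00096), and Rpl3 fell by 0.28. These 3 kept their call whichever library was left out. Rps29, another abundant member, had −0.11 (adjusted p = 0.11). The count of lower genes was 12, 4, 23 and 14 without replicates 1 to 4, 15 with 1 matched cell per member, 15 without the cells with other markers and 10 with plain totals. Many ribosomal protein genes have processed pseudogenes with nearly the same sequence, and how reads were divided between them is not given in the sources used here.

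Genes of translation and energy metabolism were called lower in part, beside the 1.54% of all genes, and these calls too are relative to the trimmed mean. In plain CPM the summed levels differed by −0.10 ± 0.034 for translation factors and −0.15 ± 0.016 for nuclear oxidative phosphorylation (log2 scale, SD, n = 4). For mitochondrially encoded genes it was −0.14 ± 0.098 and for glycolytic enzymes −0.12 ± 0.10. Of 16 translation factors 2 were lower (12.5%), Eef2, the elongation factor that moves the ribosome, at −0.36 ± 0.083 (adjusted p = 0.0040, 0.054 without replicate 1 and 0.11 without replicate 2), and Btf3 at −0.37, while Eef1a1 had −0.09 (adjusted p = 0.34), and all 16 had values below 0 with a median of −0.19. Of 80 tested nuclear oxidative phosphorylation genes 4 were lower (5.0%) and none higher (median −0.20), among them Ndufs7 at −0.56, Ndufb4 at −0.54 and Uqcr11 at −0.48, subunits of complexes I and III. Without replicates 1 to 4 this list had 2, none, 4 and 1 lower genes, and 1 with 1 matched cell per member, as had the translation factors. Of 12 mitochondrially encoded genes 4 were lower (33.33%), mt-Co1, mt-Co2, mt-Co3 and mt-Atp6, at −0.26 to −0.17. Mt-Co3 was at 2713, 2654, 2039 and 2374 CPM against 3121, 2844, 2671 and 2401 CPM, lower in 4 of 4 libraries but close in replicate 4. That list had 2, none, 2 and 4 lower genes without replicates 1 to 4 and 4 with 1 matched cell per member. Of 11 glycolytic enzymes 1 was lower (9.091%), Pkm (−0.48, adjusted p = 0.043), and it was not called with plain totals, with 1 matched cell per member or without replicate 1, 2 or 3. Gapdh had −0.27 (adjusted p = 0.060), and Hk2 had 0.16 (adjusted p = 0.29).

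Of the 27 secreted or lysosomal genes 4 were lower (14.81% beside the 1.54% of all genes), Cst3, Ctss, Itm2b and Apoe, with 4 also under 1 matched cell per member and 4 to 6 when a library was left out. Cst3, the secreted protease inhibitor cystatin C and the most abundant microglial transcript of the list, was at 46816, 51519, 59693 and 52663 CPM against 53282, 58162, 65489 and 58614 CPM. It was lower in 4 of 4 libraries, with plain log2 ratios of −0.19, −0.18, −0.13 and −0.15 and a fitted log2 fold change of −0.22 ± 0.012 (adjusted p = 3.30e-10). Ctss, the lysosomal protease cathepsin S, fell by 0.18 and the membrane protein gene Itm2b by 0.22, while Ctsd had −0.07 (adjusted p = 0.15). Apoe had −1.01 and is described with the MHC class II genes. Of 16 actin cytoskeleton genes 4 were lower (25%), Tmsb4x, Pfn1, Cfl1 and Arpc1b. Tmsb4x, which codes for the actin-sequestering thymosin beta-4, was at 11221, 12727, 12022 and 10976 CPM against 12248, 14632, 12632 and 12686 CPM, lower in each library, with a fitted log2 fold change of −0.21 ± 0.033 (adjusted p = 4.54e-07). Actb had −0.11 (adjusted p = 0.13). In plain CPM the summed level differed by −0.11 ± 0.0072 for the secreted or lysosomal list and −0.12 ± 0.054 for the actin list (log2 scale, SD, n = 4). Without replicates 1 to 4 the actin list had 2, 1, 4 and 2 lower genes, and with 1 matched cell per member 2.

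**Figure D4:**
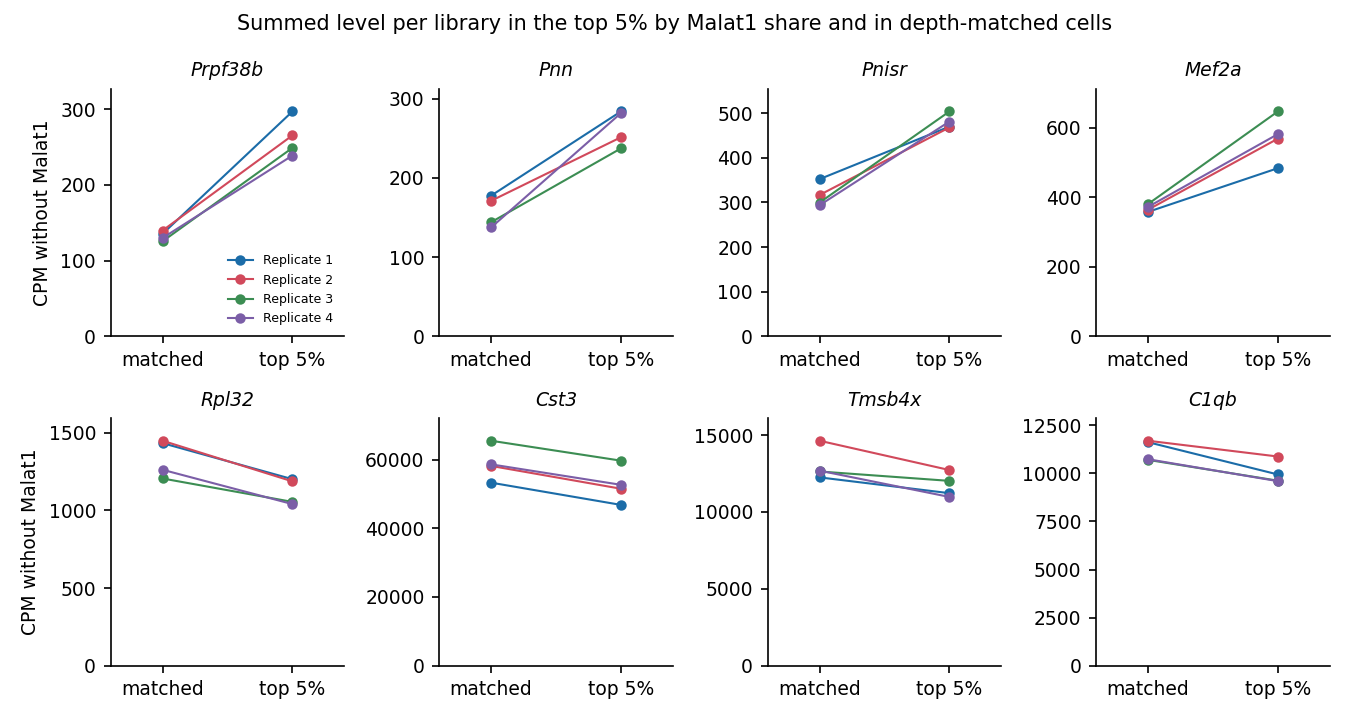
CPM without Malat1 (y axes, from 0) in the depth-matched cells and in the 5% of cells with the highest Malat1 share (x axis), 1 line per library, for 4 genes called higher and 4 called lower. The lines of Prpf38b, Pnn, Pnisr and Mef2a rise in each of the 4 libraries, with plain log2 ratios of 0.42 to 1.13, and those of Rpl32, Cst3, Tmsb4x and C1qb fall in each, with plain log2 ratios of −0.29 to −0.07.

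Among genes of microglial identity 9 of 18 tested were called (50% beside the 3.313% of all genes in either direction), with log2 fold changes from −0.22 to 0.13 over the list. There 8 were lower (among them C1qa, C1qb, C1qc, Trem2, Ly86, Fcgr3 and Csf1r) and Cx3cr1 was higher, with a median of −0.10. C1qa was lower in 3 of 4 libraries and lost its call without replicate 1, 2 or 4. C1qb, a chain of complement C1q, was at 9944, 10878, 9621 and 9596 CPM against 11623, 11698, 10703 and 10736 CPM, a log2 fold change of −0.22 ± 0.025 (adjusted p = 5.17e-07), called whichever library was left out. Cx3cr1, the fractalkine receptor, was higher by 0.13 ± 0.040 (adjusted p = 0.042), not called when any 1 library was left out. P2ry12 had −0.09 (adjusted p = 0.091) and Tmem119 −0.04 (adjusted p = 0.58). With plain totals only C1qb stayed lower and Cx3cr1 higher, with 1 matched cell per member 2 were lower and none higher, and without replicates 1 to 4 the lower count was 6, 1, 7 and 4.

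MHC class II genes were the furthest below the matched cells, and they were not called once cells with markers that include these genes were left out. Cd74, the invariant chain, was at 35.5, 25.7, 23.7 and 64.2 CPM against 356, 80.0, 208 and 1016 CPM, a log2 fold change of −3.49 ± 0.50 (adjusted p = 2.16e-19). H2-Ab1, H2-Eb1 and H2-Aa, which code for the antigen-presenting chains, were at −3.34, −3.24 and −3.19, while H2-DMa and H2-DMb1 had −0.19 and −0.21 and were not called. A setting left out all kept cells with markers of other myeloid or dividing cells and then chose members (628) and matched cells again. The 3 members and 27 matched cells with such markers were among those left out. Kept cells went from 3520, 3661, 2529 and 3105 to 3474, 3599, 2493 and 2985 in replicates 1 to 4. That marker rule picks cells partly by these same genes, so a smaller difference of these genes was built into the setting. There Cd74 had −0.15 (adjusted p = 0.88) and H2-Ab1 −0.67 (adjusted p = 0.38). H2-Aa and H2-Eb1 were below 20 CPM and not tested, and no gene of the list that was still tested was called. Under that setting Apoe, the lipid carrier, went from −1.01 (319, 374, 178 and 414 CPM against 551, 566, 206 and 1168 CPM, adjusted p = 1.50e-09) to −0.33 (adjusted p = 0.042). Lyz2, lysozyme, went from −0.72 to −0.40 (adjusted p = 0.0039), and the total was 104 higher and 78 lower genes.

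The exAM list, the study's signature of microglia activated outside the body during dissociation, had 1 higher gene, Jun, among 15 tested (6.667% beside 1.78%). Its median was 0.10, with 10 values above 0 and 5 below, and 1 gene was lower and none higher with 1 matched cell per member. In plain CPM the summed level of the list was higher in 4 of 4 libraries, by 0.14 ± 0.12 on the log2 scale (SD, n = 4). Jun was at 386, 431, 279 and 1241 CPM against 293, 400, 312 and 803 CPM, with replicate 4 far above the other libraries in both groups, and had a log2 fold change of 0.31 ± 0.17 (adjusted p = 0.033). Without replicate 4 its adjusted p was 0.82 and without replicate 2 it was 0.11. Fos was at 13.3, 0, 23.7 and 203 CPM against 5.42, 18.5, 13.4 and 127 CPM (adjusted p = 0.39), and Egr1 at 0, 19.98, 0 and 160 CPM against 4.07, 6.74, 5.02 and 107 CPM (adjusted p = 0.25). Of 6 tested interferon-responsive genes Ifit3 was higher (1.34 ± 0.94, with a matched mean of 13.2 CPM, so that it passed the filter through the members) and Bst2 lower (−0.44 ± 0.11), Ifit3 being higher in 3 of 4 libraries and Bst2 lower in 4 of 4. Without replicate 1 or 2 Ifit3 was below 20 CPM and not tested, and Bst2 lost its call whichever library was left out. Of 4 tested genes of disease-associated microglia Tyrobp, an adaptor of TREM2, was at −0.22 and Cd9 at −0.17, both lower, with no call left without replicate 2.

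The 10 genes with the highest log2 fold change among those called and higher in 4 of 4 libraries were Zfp608, Hist4h4, Zfp532, Dyrk1a, Cdkn1a, Ccl12, Gm4673, Jarid2, Smarcc2 and Trim44, at 1.08 to 2.09. Of these, 7 had a mean below 20 CPM in the matched cells and passed the filter only through the members (all but Ccl12, Gm4673 and Trim44), as did 9 of all 110 higher genes, so their calls are not independent of the filter. Zfp608, a zinc finger gene, was at 62.1, 31.4, 29.6 and 32.1 CPM against 8.13, 8.42, 8.37 and 8.46 CPM. Without replicate 1 its mean fell under 20 CPM and it was not tested. Ccl12, a chemokine, was at 297, 351, 332 and 135 CPM against 156, 102, 116 and 122 CPM (1.12 ± 0.36, adjusted p = 8.95e-07), and without replicate 2 its adjusted p was 0.068. The other 8 each lost their call without 1 or more libraries, among them Dyrk1a, a kinase that phosphorylates splicing factors, which was called in none of these 4 fits and had 6 to 10 UMIs per member profile. Gm4673 is an antisense gene, and whether counting used strand is not given in the sources used here. The 10 lowest were Cd74, H2-Ab1, H2-Eb1, H2-Aa, Apoe, Ppdpf, Txn1, Lyz2, Eif3g and Scp2, at −3.49 to −0.56. Of all 95 lower genes, 3 had a mean below 20 CPM in the members and passed the filter only through the matched cells. Calls of those 3 are likewise not independent of the filter.

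The called genes also differed in length, a property the choice of cells did not use. Among 105 protein-coding genes called higher the median span from first to last exon was 63.9 kb, with 5093 nt of transcript and 15 exons, and among 94 called lower it was 5.42 kb, with 1161.5 nt and 5 exons. Among the 20% of protein-coding genes with the longest transcripts (median 6032 nt) the median log2 fold change was 0.19, with 62 higher and 1 lower of 1217, and among the 20% with the shortest (median 1074 nt) it was −0.13, with 3 higher and 66 lower. The groups between lay in order, at −0.06, −0.0041 and 0.04. By gene span the medians ran from −0.10 for the shortest 20% to 0.16 for the longest, and by coding length from −0.11 to 0.21. The genes called lower were also the more abundant, with a median of 953 CPM against 143 CPM. Within the most abundant 20% of genes the shortest spans had a median of −0.15 and the longest 0.08, and within the least abundant 20% 0.03 and 0.15. These are descriptions across genes, which are not independent of each other. Counts per gene do not show where in a gene the reads fell.

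**Figure D5:**
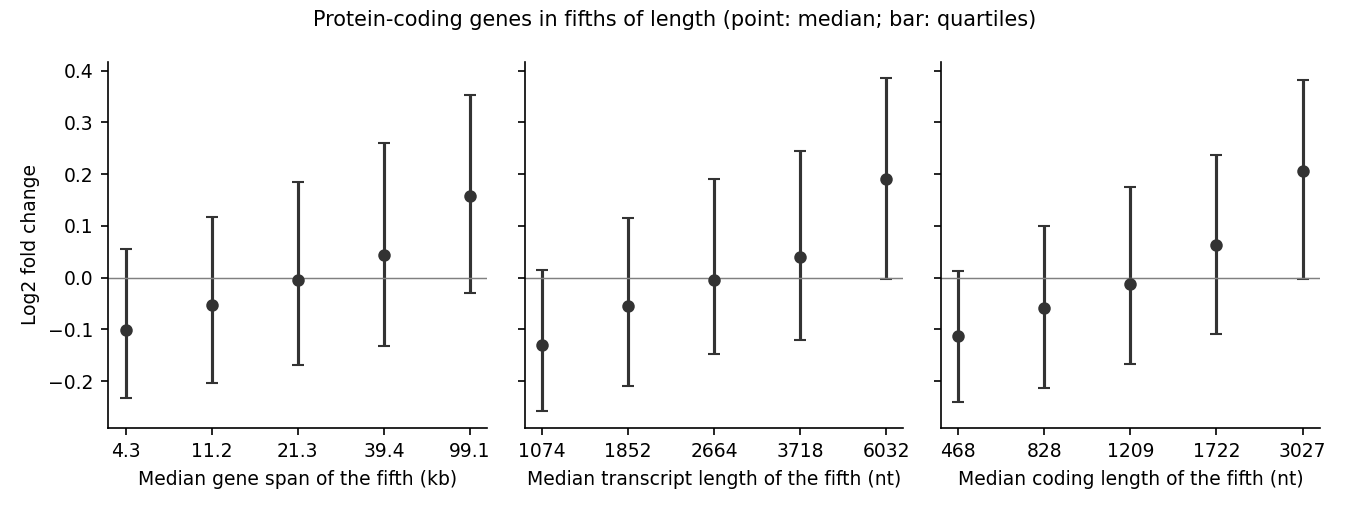
Median log2 fold change (points) and quartiles (bars) of protein-coding genes in 5 equal groups by gene span, transcript length and coding length (x axes, median of each group in kb or nt). The medians rise from the shortest to the longest group in each panel, from −0.13 to 0.19 for transcript length.

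The choice of limit moved the sizes but not the directions of the summed measures. In the top 2.5% (321 cells) the mean Malat1 share was 10.9% and the ribosomal protein difference −0.67 points, and in the top 10% (1281 cells) 9.18% and −0.55 points. Against the 5% of cells with the lowest Malat1 share, which took 2.73% on average and were not matched in depth (1579 against 2732 median UMIs), the ribosomal protein difference was −2.10 points and 638 genes were higher and 734 lower. Markers of other cell types were not counted in that lowest 5%, and whether it differed in cell types was not tested.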

How the data were processed

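The deposited files were per-library matrices of whole-number UMI counts per gene and barcode, made by the authors with Cell Ranger 2.2.0 against mm10 (GRCm38) per the labels. Cells were filtered and chosen as described above. The members, lists and tests were chosen with earlier results of these data known. No columns of other samples were present. Doublets were not called here, and the study removed them by joint marker expression. A setting left out the 2% of cells with the most UMIs. Counts were summed per library and group, giving 8 profiles without Malat1, and fitted with edgeR 4.0.16 (quasi-likelihood, trimmed mean of M values, library as block, because members and matched cells came from the same mouse), with DESeq2 1.42.0 as an alternative. CPM are plain, without the scaling factor. Log2 fold changes are from the fit. Their SE is that of the 4 libraries' log2(CPM + 1) ratios. Single measures used exact sign-flip permutation tests. Named genes were the 10 highest and 10 lowest called genes with 1 direction in 4 libraries, the 3 most abundant of each list and a set of fixed genes, and further called list members named after their values were seen. A few genes that these rules name are not reported here. Annotation and sequence came from GENCODE vM21, which matched 6186 of 6188 tested genes. The fit was tested on simulated counts. The replicates are separate mice.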

Additional observations from a re-analysis of the deposited data

Results flagged for a closer look

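In 130 per-library values, Dixon's test at its 95% critical value for 4 libraries marked 6 in which 1 library stood far from the other 3. Chance alone marks about 1 in 20. The value given is the gap to the nearest library over the whole range. Replicate 1 stood low in the ribosomal protein difference (0.863, −1.12 points against −0.54 to −0.45) and in the summed level of the ribosomal protein genes (0.850, a log2 ratio of −0.20 against −0.09 to −0.07), and high in Zfp608 (0.909, 2.79 against 1.71 to 1.81). Replicate 2 stood apart for Btf3 (0.869, −0.10 against −0.44 to −0.39), Bst2 (0.846, −0.08 against −0.56 to −0.49) and Fos (0.912, −4.29 against 0.68 to 1.16), where no Fos UMI was counted in the members of replicate 2. The causes were not tested.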

How the results depend on the processing

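The number of calls moved with the setting, and the settings share most of their cells, so they are not independent of each other. Against 110 higher and 95 lower genes, there were 25 and 38 with DESeq2, 16 and 2 with no replicate block (that is, without pairing the groups by mouse), 325 and 356 for the top 10%, 53 and 60 for the top 2.5%, 261 and 341 against all middle cells, 638 and 734 against the 5% with the lowest share, 45 and 60 with 1 matched cell per member, and 22 and 55 when cells were chosen and measured on different UMIs. Leaving out 1 library gave 14 to 92 higher and 26 to 101 lower genes, with the lowest of both without replicate 2. Plain totals gave 53 lower genes and totals without ribosomal protein and mitochondrial genes 56, no filter on low counts 219 lower, no ribosomal protein floor 147 lower, thinning to 1000 UMIs 40 higher, and the added fold limit 55 and 9. The cause was not tested, though thinning, 1 matched cell and the split leave fewer molecules by construction. Relative log expression scaling, a 5% mitochondrial ceiling, 1000 genes per cell, and leaving out the deepest cells or those with other markers kept both counts within 1.5 times. Non-Malat1 depth relative to the middle cells was 0.726 for the top 10%, 0.607 for the top 2.5% and 0.787 with 1000 genes per cell, beside 0.662. The ribosomal protein difference stayed negative (−2.10 to −0.36 points), the mitochondrial one negative (−0.39 to −0.03) and genes per cell positive (9.25 to 46.2) in all alternatives run. Among 105 named genes, the 2 that turned with a call were Tmem119 (0.20) and Snhg20 (0.62), both against the lowest 5%, calls were lost in 394 of 2285 values and gained in 93, and 72 values of genes called in neither fit changed sign. Depth limits low genes: the matched profiles held 597048 to 1186950 UMIs, but the member profiles only 168696 to 350355.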
